A study of Homo sapiens with 2 samples.

Results

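FN1 encodes fibronectin and TNC encodes tenascin-C, and their RNA is described here transcript by transcript. Every line of the deposited transcript table whose gene name is FN1 or TNC was taken, which gave 40 of 134092 transcripts, 27 of FN1 and 13 of TNC. The 2 genes were chosen by their RPKM and reads in these same libraries, in which earlier results had shown them higher with ASC, so the ratios below describe that difference and do not test it. The libraries come from the established cell line SAS, from human oral cancer, and the study compares SAS cells with and without overexpression of ASC. ASC, the product of PYCARD, is the adaptor that joins inflammasome sensors to caspase-1. The control library is from SAS cells stably carrying the lentiviral vector pLKO.AS2 without an insert, and the ASC library is from SAS cells stably carrying the same vector with ASC. Both lines grew in DMEM with 10% FBS, G418 at 200 µg/ml and puromycin at 2 µg/ml, so both were under the same selection, and the labels do not say whether either is a pool or a clone. Each group has 1 library. None of the differences was therefore checked in a replicate, and differences of 1 line, culture or library preparation cannot be told apart from those of ASC.

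Fibronectin is a large secreted glycoprotein that cells assemble into fibrils through integrins, and tenascin-C is a matrix glycoprotein of embryonic, wounded and tumour tissue that modulates adhesion to fibronectin. Both are chains of small repeats, and both vary through exons that each add a whole fibronectin type III repeat. Fibronectin has the extra domains EDB and EDA and a variable region, called V here, while tenascin-C has a run of alternative repeats in the middle of the chain. Plasma fibronectin made by liver lacks EDB and EDA, whereas fibronectin made locally by cells can hold them, and large tenascin-C forms with many alternative repeats are known from remodelling and tumour tissue.

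The listed reads sum to 31426491 with ASC and 31289581 in the control. The level of PYCARD was 1.36 RPKM in the control library and 266.5 with ASC, the direction that the labels give. RPKM divides the reads of a transcript by its length and by the depth of the library. The log2 ratios are those of RPKM plus a pseudocount of 1, and they understate differences of low transcripts. A gene or transcript is called 2-fold higher or lower at an absolute log2 ratio of at least 1 on this scale. Of 8 epithelial markers all 8 passed 1 RPKM, with a summed level of 3621 RPKM in the ASC library against 2860 in the control library. Most of the sum was KRT8 (1136 against 763 RPKM) and KRT18 (1363 against 967). The log2 ratio was above 0 for 6 of the 8 and below 0 for 2, KRT5 (311 against 421 RPKM) and TP63 (46.0 against 54.5). Of 10 fibroblast markers, 8 were matched and only VIM passed 1 RPKM. The summed fibroblast level was 6.99 RPKM against 4.66, with COL1A1 at 0.353 and 0.0941 RPKM, PDGFRA at 0 in the ASC library and LUM at 0 in the control library. COL1A2 had 0.0511 against 0.0371 RPKM and COL3A1 0.0515 against 0.0433, while FAP, another fibroblast marker, had 45 reads against 2. Of 4 endothelial markers only CDH5 passed 1 RPKM, with a summed level of 2.84 RPKM against 2.14. Of 4 leukocyte markers only CD68 passed it, with a summed level of 24.5 RPKM against 26.2, and PTPRC had 1 read against 0. Both libraries are from 1 cultured cell line, and how these markers relate to the FN1 and TNC levels was not tested. In bulk RNA, more cells that make a transcript and more RNA per cell cannot be told apart.

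FN1 (ENSG00000115414.18, chr2:215360440-215436172 on the minus strand of hg38) had 46929 reads in the ASC library against 18346 in the control library. Its level was 180.5 against 69.8 RPKM, 2.59-fold apart (log2 ratio 1.36). TNC (ENSG00000041982.15, chr9:115019578-115118257, minus strand) was far lower, at 5.83 RPKM and 1341 reads against 2.06 RPKM and 429 reads. Its RPKM differed 2.83-fold, with a log2 ratio of 1.16, and the log2 ratio of its reads scaled to depth was 1.64 (95% interval 1.48 to 1.80). Both genes were thus called higher in the ASC library, as were 0.617% of the 12471 genes compared. With a pseudocount of 3 RPKM the log2 ratio of TNC was 0.80, short of the call. Among transcripts with at least 100 reads in either library, the 12 of FN1 were 1.78-fold to 3.46-fold higher and the 2 of TNC 3.05-fold and 5.07-fold higher. Intervals here and below are exact (Clopper-Pearson) intervals from rounded reads. They cover counting error only, and not the error of assigning a read to a transcript among near-identical ones.

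The 3 alternative parts of fibronectin are shown first because all comparisons of FN1 forms rest on them. All sequences are from the GENCODE 29 transcripts of hg38, 5′ to 3′ on the strand of the gene. EDB is the exon at chr2:215392931-215393203, 273 bases long and exon 25 of the transcript ENST00000432072.6. EDA is the exon at chr2:215380811-215381080, 270 bases long and exon 32 of ENST00000446046.5. Capitals mark the exon, and the lower-case letters are the last and first 12 bases of its spliced neighbours. Each exon is a multiple of 3 bases and adds a repeat of 91 or 90 residues without a frame shift.
EDB exon: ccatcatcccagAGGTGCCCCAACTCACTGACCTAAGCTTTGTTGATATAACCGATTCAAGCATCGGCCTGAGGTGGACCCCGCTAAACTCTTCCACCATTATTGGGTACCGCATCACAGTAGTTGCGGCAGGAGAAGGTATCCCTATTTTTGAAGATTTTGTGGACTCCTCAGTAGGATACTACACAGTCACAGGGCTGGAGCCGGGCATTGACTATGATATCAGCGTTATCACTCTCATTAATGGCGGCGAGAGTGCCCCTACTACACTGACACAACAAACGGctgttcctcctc
EDA exon: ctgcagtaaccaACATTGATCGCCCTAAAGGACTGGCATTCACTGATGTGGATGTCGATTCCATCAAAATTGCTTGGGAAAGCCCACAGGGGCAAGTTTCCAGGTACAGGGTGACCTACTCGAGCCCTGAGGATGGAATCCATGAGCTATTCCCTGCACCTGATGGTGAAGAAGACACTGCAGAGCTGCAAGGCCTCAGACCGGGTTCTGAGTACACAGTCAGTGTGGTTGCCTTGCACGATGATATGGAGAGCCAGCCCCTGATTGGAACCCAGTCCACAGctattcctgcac
When the exon is skipped, its neighbours join directly, and the joins differ from the included form over a few bases only. In the joins below, lower case is the end of the exon before and capitals are the start of the exon after.
EDB skipped: ataccatcatcccagCTGTTCCTCCTCCCA
EDA skipped: agactgcagtaaccaCTATTCCTGCACCAA

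The variable region is not a whole exon: it is the first part of the coding exon at chr2:215371909-215372375 (467 bases, of which 360 vary), cut into 3 segments by alternative splice sites. Its first segment, chr2:215372301-215372375, has 75 bases for 25 residues and holds a known binding site of the α4β1 integrin. The middle segment, chr2:215372109-215372300, has 192 bases for 64 residues, and the last, chr2:215372016-215372108, has 93 bases for 31 residues.
V first segment: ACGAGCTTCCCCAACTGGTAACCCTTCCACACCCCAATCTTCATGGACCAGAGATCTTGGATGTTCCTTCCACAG
V middle segment: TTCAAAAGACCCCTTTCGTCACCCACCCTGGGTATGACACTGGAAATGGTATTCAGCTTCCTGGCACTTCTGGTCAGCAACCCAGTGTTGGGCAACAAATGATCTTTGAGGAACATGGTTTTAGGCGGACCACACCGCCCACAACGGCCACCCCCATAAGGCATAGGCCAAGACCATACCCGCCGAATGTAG
V last segment: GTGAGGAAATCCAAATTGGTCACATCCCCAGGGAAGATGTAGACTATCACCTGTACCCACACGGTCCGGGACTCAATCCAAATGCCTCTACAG
A form is named here by the number of V residues it keeps: V120 has all 3 segments, V89 the first and middle, V64 the middle alone and V0 none. No listed FN1 transcript that crosses the region has the middle and last segments without the first.

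These sequences set what the table can tell apart. Among the 10 transcripts that run over all 3 regions, 300 different 31-base stretches occur in all 5 that hold EDA and in none that skip it, and 30 occur only in the skippers. For EDB the numbers are 302 and 29. V64 is marked by 26 such stretches and V120 by 118, but V89 by none, since each of its joins is shared with another form. EDB and EDA are 1095 bases apart in the spliced RNA and EDA and the variable region 813 bases. Of the 12 FN1 transcripts with at least 100 reads in either library, 9 have no 31-base stretch of their own within the gene, so their levels are estimates that combine separate regions.

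The most abundant fibronectin form was FN1-212 (ENST00000446046.5), which lacks EDB, holds EDA and has V64. It had 62.1 RPKM in the ASC library against 24.5 in the control library, a 2.54-fold difference, and it took 37.5% of FN1 reads (95% interval 37.1 to 38.0) against 38.0% (37.3 to 38.7). The form thus kept close to the same share at the higher level. FN1-202 (ENST00000336916.8), with EDA and V89, had 15.9 against 7.16 RPKM, and FN1-206 (ENST00000359671.5), with EDA and V120, had 8.90 against 3.68. These 2 EDA forms differed by 2.23-fold and 2.42-fold. The share of FN1-202 was 10.2% against 11.8%, the largest decrease in share among FN1 transcripts, at -1.57 percentage points.

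Among forms without EDA, FN1-211 (ENST00000443816.5, V89) led, with 38.1 RPKM in the ASC library against 14.3 in the control library (2.66-fold). FN1-204 (ENST00000356005.8, V120) had 20.8 against 7.11 RPKM, a 2.93-fold difference. It also had the largest gain in share, from 10.9% to 12.4% of FN1 reads. FN1-213 (ENST00000456923.5), an annotated fragment that begins inside EDB and lacks EDA, had 13.6 against 4.86 RPKM (2.81-fold). The rare forms without EDA were FN1-205 (ENST00000357867.8, V0) at 2.04 against 0.588 RPKM and FN1-207 (ENST00000421182.5, V64) at 0.864 against 0.275. Their folds of 3.46 and 3.14 were the highest among the 12 and rest on 166 and 80 control reads. FN1-205 has none of the 3 alternative parts.

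Forms annotated with the whole EDB exon were scarce in both libraries. FN1-213 above, which begins inside EDB, is not counted among them. FN1-209 (ENST00000432072.6, EDB without EDA, V0) had 2.75 against 1.02 RPKM. FN1-201 (ENST00000323926.10, EDB, EDA and V89) had 1.99 against 1.12 RPKM, and FN1-203 (ENST00000354785.8, EDB, EDA and V120) had 1.001 against 0.535. The forms that hold both extra domains showed the lowest folds of the 12, 1.78 and 1.87, while FN1-209 differed 2.69-fold. FN1-224 (ENST00000492816.6), which is annotated as retaining introns, had 2.62 against 0.988 RPKM (2.66-fold). It is the one abundant FN1 transcript that is easy to tell apart, with 4720 stretches of its own.

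All 12 of these transcripts were higher in the ASC library. In plain RPKM 10 were at least 2-fold higher, and 6 passed the log2 ratio of 1. With a pseudocount of 3 RPKM 4 passed it, FN1-202 and FN1-206 no longer among them, and with 0.1 RPKM 10 did. Of the 14 FN1 transcripts with at least 1 RPKM in either library, 7 passed it, where 1.26% of the 34527 did. The members were picked for being higher, so this share is a description. Shares of FN1 reads moved by -1.57 to 1.52 percentage points. The 15 other transcripts together held 0.55% of FN1 reads in the ASC library against 0.53% in the control library. Several of these 15 had almost no reads in either library, so their directions are not counted. FN1-215, with 7 against 10 reads, was lower. None of the FN1 or TNC transcripts compared was 2-fold lower on this scale, as 1.06% of the 34527 were. By type, the 13 retained-intron transcripts took 2.35% against 2.24% of FN1 reads, and the 13 protein-coding ones 97.6% against 97.8%.

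**Figure D1:**
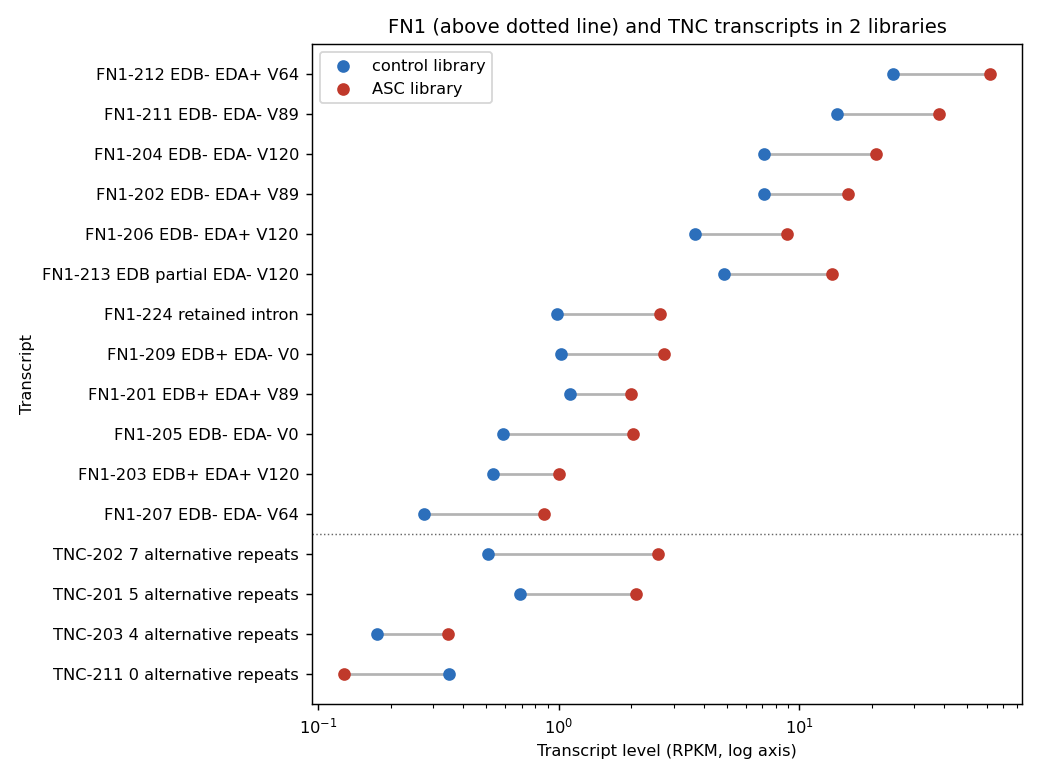
Level of each FN1 and TNC transcript (RPKM, log axis) in the control library (blue) and the ASC library (red), 1 library each, for FN1 transcripts with at least 100 reads in either library and the 4 TNC transcripts with the most reads. All 12 FN1 points and 3 of the TNC points lie higher in the ASC library, and TNC-211, without alternative repeats, lies lower (0.128 against 0.350 RPKM).

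Summed over transcripts, EDA-holding FN1 had 89.9 RPKM in the ASC library against 37.0 in the control library (2.43-fold). FN1 that skips EDA had 78.2 against 28.2 RPKM (2.77-fold). EDA inclusion, the RPKM of holders as a percentage of holders and skippers, was therefore 53.5% in the ASC library against 56.7% in the control library, a difference of -3.24 percentage points. Weighted by reads it was 56.8% (95% interval 56.4 to 57.3) against 60.1% (59.3 to 60.8). These intervals cover counting error only, and with 1 library each the spread between cultures is unknown. EDA-holding RNA was the larger part of fibronectin RNA in both libraries. EDB inclusion was 3.71% against 4.43%, or 3.85% (3.68 to 4.04) against 4.64% (4.33 to 4.97) by reads. Forms with the whole EDB exon summed to 5.74 against 2.67 RPKM. FN1-213, which begins inside EDB, had more, at 13.6 against 4.86 RPKM, and was counted neither as holder nor as skipper of EDB. The EDB values thus depend on leaving FN1-213 out. FN1-213 made up 8.12% against 7.46% of RPKM over the FN1 transcripts that cover EDA and the variable region. This difference of 0.66 points is opposite in sign to the EDB difference of -0.72 points. Among alternative exons of all genes measured the same way, the median absolute difference between the libraries was 0.86 points, and 6.50% of 32926 exons differed by at least 10 points. Neither EDA nor EDB did. The EDA difference was above this median and the EDB difference below it. This set of exons was not matched to FN1 in depth.

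The variable region was divided nearly alike in the 2 libraries. V64 made up 37.4% of FN1 RPKM across the region in the ASC library against 38.0% in the control library, and V89 33.3% against 34.7%. V120 made up 26.4% against 24.8% and V0 2.84% against 2.47%. The first segment, with a known α4β1 site, was present in 59.7% against 59.6%. EDA and V were unevenly paired among the listed forms. V64 was nearly all in EDA-holding RNA, with 36.9% of RPKM in EDA with V64 and 0.514% in V64 without EDA, in the ASC library. V89 and V120 lay mostly in RNA without EDA. V89 without EDA took 22.7% against 22.01% and V120 without EDA 20.5% against 18.4%, and with EDA these were 10.7% against 12.7% and 5.89% against 6.47%. Since EDA and V are far apart in the RNA and the read length is not given in the sources used here, how directly the reads show these pairs was not tested.

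**Figure D2:**
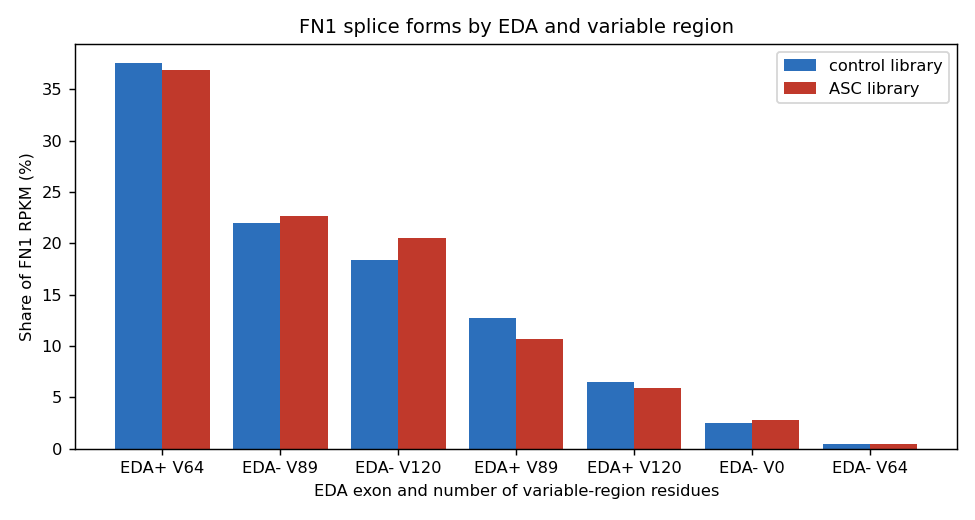
Share of FN1 RPKM (percent, over the 11 transcripts that cover EDA and the variable region) for each pair of EDA state and number of V residues, in the control library (blue) and the ASC library (red). EDA with V64 is the tallest pair of bars (37.6% and 36.9%), and EDA with V89 is lower in the ASC library (10.7% against 12.7%).

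FN1 transcripts also end at 2 groups of positions, 404 bases apart. The 6 transcripts over all 3 regions with the long end had 30.7 RPKM in the ASC library against 13.4 in the control library (2.30-fold). The 4 with the short end had 123.8 against 47.0 RPKM (2.64-fold), so the short end was the main one in both. Splice form and end are tied in the listed set: 4 of the 6 long-end transcripts hold EDA and 1 of the 4 short-end ones does. Within the long end EDA-holding forms took 90.6% against 93.5% of RPKM, and within the short end 50.2% against 52.1%. EDA inclusion was thus lower in the ASC library within either end, by less than the difference between the ends.

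Tenascin-C has 8 alternative repeats in the listed transcripts, numbered R1 to R8 here in transcript order. By that order R1 to R4 correspond to the repeats usually called A1 to A4, R5 to B, R7 to C and R8 to D. R3 (chr9:115062917-115063189) is exon 13 and R7 (chr9:115048260-115048532) exon 16 of ENST00000350763.8, and each has 273 bases for 91 residues. R3 and R7 are shown because they are the repeats in which the 2 leading TNC forms differ, with the exon in capitals between 12 bases of its neighbours.
TNC repeat exon R3: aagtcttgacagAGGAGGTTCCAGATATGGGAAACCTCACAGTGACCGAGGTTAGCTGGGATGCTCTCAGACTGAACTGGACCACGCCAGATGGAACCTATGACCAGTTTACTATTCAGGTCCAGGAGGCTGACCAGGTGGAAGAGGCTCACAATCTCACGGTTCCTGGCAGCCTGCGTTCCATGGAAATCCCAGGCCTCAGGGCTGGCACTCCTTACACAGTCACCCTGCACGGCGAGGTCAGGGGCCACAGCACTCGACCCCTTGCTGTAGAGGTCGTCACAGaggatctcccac
TNC repeat exon R7: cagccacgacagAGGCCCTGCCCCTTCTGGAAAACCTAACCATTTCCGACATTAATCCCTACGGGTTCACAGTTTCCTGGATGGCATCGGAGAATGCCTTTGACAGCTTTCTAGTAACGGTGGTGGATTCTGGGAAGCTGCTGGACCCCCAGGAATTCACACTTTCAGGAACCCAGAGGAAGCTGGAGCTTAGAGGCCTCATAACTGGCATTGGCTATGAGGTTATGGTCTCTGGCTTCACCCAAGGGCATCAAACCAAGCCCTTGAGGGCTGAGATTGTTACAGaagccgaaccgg
The joins that skip R3, skip R7 and skip all 8 repeats follow, with the end of the exon before in lower case and the start of the exon after in capitals.
TNC R3 skipped: ttgaagtcttgacagAGGATCTCCCACAGC
TNC R7 skipped: ccacagccacgacagAAGCCGAACCGGAAG
TNC all repeats skipped: tgaaggcatccactgCCATGGGCTCCCCAA
The repeats are related but distinct. Over the 28 pairs of R1 to R8 the median identity was 53.2%, and the closest pair, R1 and R4, matched at 88.6% of positions with a longest shared run of 47 bases. R3 is marked by 295 stretches of 31 bases found in all its holders and no skipper among the 6 complete protein-coding transcripts, and R7 by 296.

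The TNC form with the most repeats was the most abundant in the ASC library. TNC-202 (ENST00000350763.8) holds 7 alternative repeats, all but R6, and had 2.57 RPKM and 701 reads in the ASC library against 0.507 RPKM and 139 reads in the control library. The fold was 5.07, and scaled reads had a log2 ratio of 2.33 (95% interval 2.06 to 2.60). TNC-202 took 52.3% of TNC reads (49.6 to 55.0) against 32.3% (28.0 to 37.1). TNC-201 (ENST00000341037.8), which lacks R3, R6 and R7 and keeps 5 repeats, had 2.09 RPKM and 506 reads against 0.687 RPKM and 167 reads. It differed 3.05-fold (log2 ratio of reads 1.59, 1.34 to 1.85) while its share of reads was 37.8% against 38.9%, and its share of RPKM, in the other direction, 35.9% against 33.4%. In the control library TNC-201 stood above TNC-202, and in the ASC library the order was the other way. Of these 2, the only TNC transcripts with at least 1 RPKM in either library, TNC-202 passed the log2 ratio of 1, which it did not with a pseudocount of 3 RPKM (0.67).

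The remaining TNC transcripts had under 100 reads in both libraries, and the following 2 were singled out after their values were seen. TNC-203 (ENST00000423613.6), with R1 to R4 only, had 77.5 against 39.3 reads, and its share was 5.78% against 9.15%. TNC-211 (ENST00000537320.5) has none of the 8 repeats, the smallest kind of tenascin-C, and had 22.6 reads in the ASC library against 62.0 in the control library. Its level was 0.128 against 0.350 RPKM, with a log2 ratio of scaled reads of -1.44 (-2.20 to -0.73), and its share was 1.68% (1.09 to 2.56) against 14.5% (11.3 to 18.1). Of the 4 TNC forms with the most reads it was the one that was lower with ASC, although the gene as a whole was higher. TNC-211 has no 31-base stretch of its own within the gene, although 26 stretches set it apart from the 5 complete protein-coding transcripts that hold repeats. The 11 TNC transcripts below 100 reads held 9.97% of TNC reads in the ASC library against 28.8% in the control library. Several of them had almost no reads in either library, so directions are not counted over all 13.

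Exon by exon, inclusion of every alternative repeat except R6 was higher in the ASC library. R7 was in 48.0% of the RPKM of its holders and skippers in the ASC library against 25.6% in the control library. By reads R7 was in 52.7% (50.02 to 55.4) against 32.5% (28.1 to 37.2). The values of the other repeats are over their own holders and skippers in the same way. R3 was in 53.7% against 34.5%, or 58.5% (55.8 to 61.1) against 41.7% (37.0 to 46.5) by reads. These 2 exons were thus in a minority of the control RNA and in close to equal parts with skipping RNA in the ASC library. R2 and R4 were each in 92.2% against 69.2%, R1 in 97.1% against 78.9%, and R5 and R8 each in 91.3% against 73.5%. R6 was rare in both, at 1.65% against 0.80%, and its difference has the opposite sign by reads, at -0.43 points. The mean number of alternative repeats, over the 7 TNC transcripts that cross the region, was 5.80 in the ASC library against 4.46 in the control library, and 5.91 against 4.80 by reads. The difference of 1.34 repeats was 0.36 without TNC-211.

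These inclusion values are not separate observations, since the exons sit in the same few transcripts. Without TNC-202 the difference was 0.20 points for R3 and 2.38 for R7, against 19.2 and 22.3 with it. The differences of the other repeats rest in large part on TNC-211, the low form singled out above. Without it the difference was 0.74 points for R1 in place of 18.2, 10.3 for R2 and R4 in place of 22.9, and 4.22 for R5 and R8 in place of 17.8. R3 and R7 differed by 13.1 and 17.9 points without TNC-211. Among alternative exons of all genes with 1 to 3 RPKM in the control library, the range in which TNC lies, 21.8% of 4988 differed by at least 10 points, against 7 of the 8 TNC repeats, or 4 of the 8 without TNC-211. These 4 include R2 and R4, for which TNC-213, an incomplete transcript with 18 against 16 reads, counted as skipping. TNC-213 begins inside R1 and did not count for R1. Among complete transcripts, with TNC-211 kept, the difference was 18.2 points for R1, R2 and R4 alike. Leaving out both TNC-211 and TNC-213 was not tried.

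**Figure D3:**
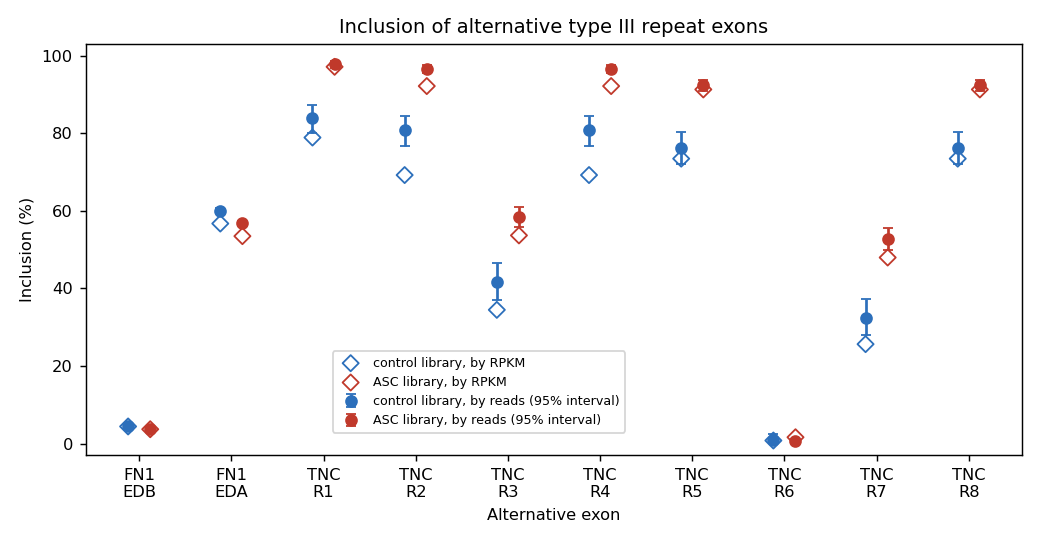
Inclusion (percent) of EDB and EDA of FN1 and of R1 to R8 of TNC in the control library (blue) and the ASC library (red). Diamonds are weighted by RPKM and circles by reads, with 95% counting intervals; EDB and EDA differ by -0.72 and -3.24 points (ASC minus control), and the TNC repeats other than R6 lie higher by 17.8 to 22.9 points, of which R1, R5 and R8 keep less than 5 points without TNC-211.

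The starts of TNC transcripts differed as well. The 3 complete protein-coding transcripts with an upstream start, among them TNC-202, had 2.94 RPKM against 0.698 (4.21-fold). The 3 with an inner start, at least 21610 bases further on and including TNC-201 and TNC-211, had 2.22 against 1.04 RPKM (2.14-fold). Upstream starts thus took 58.4% of TNC reads in the ASC library against 42.5% in the control library. In the listed set each repeat pattern named above comes with 1 start, so start and repeats are tied. Forms with the same start still differed. Among inner starts, TNC-201 had 506 against 167 reads and TNC-211, without repeats, 22.6 against 62.0. Among upstream starts, TNC-202 was 5.07-fold higher and TNC-203 1.98-fold. What part a change of start had in the repeat differences was not tested. The kit does not mark strand, and exons of DEC1 on the plus strand overlap those of TNC, but DEC1 had 0 listed reads against 1.

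A single number for such change is the transcript usage shift, the share of a gene's reads that would have to move between its transcripts to turn the control pattern into that of the ASC library. For FN1 it was 3.30 percentage points, and 53.5% of the 5711 genes with at least 1000 reads in both libraries had at least this shift. The median of such genes was 3.65 points, and 11.3% of them shifted by at least 10. Shifts are larger at low depth, and FN1 is read far more deeply than most of these genes. Among 381 genes with 5 or more transcripts and control reads within 2-fold of those of FN1, a set chosen after the data had been seen, the median was 2.27 points and 1.31% shifted by at least 10. In that set 36.7% had a larger shift than FN1, which was thus above the median at its own depth. TNC shifted by 20.2 points, where the median of the 10451 genes with at least 100 reads in both was 5.11 and 24.0% shifted by at least 10. Among 2393 genes with 5 or more transcripts and control reads within 2-fold of those of TNC, the median was 9.59 points, 47.4% shifted by at least 10, and 11.8% shifted by at least as much as TNC.

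**Figure D4:**
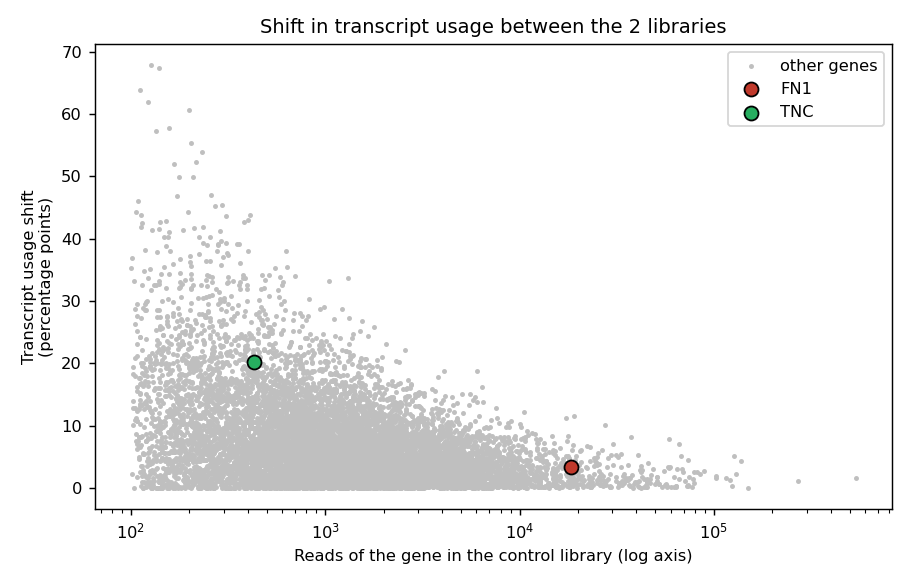
Transcript usage shift (percentage points) against the reads of the gene in the control library (log axis), for genes with at least 100 reads in both libraries (grey), FN1 (red) and TNC (green). Shifts shrink with depth; FN1, at 3.30 points, lies somewhat above the median of genes of its depth (2.27) and TNC, at 20.2 points, in the upper part of the cloud at its depth.

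Most of the compared receptors of the 2 proteins differed by less than 2-fold. Of 15 receptor genes 8 passed 1 RPKM in either library, none was 2-fold higher and 1 was 2-fold lower (0.265% of all genes compared were lower), with a median log2 ratio of 0.05 against 0.01 over all genes compared. The one lower gene was ITGB8, whose integrin αvβ8 binds latent TGF-beta, at 1.96 against 5.63 RPKM (log2 ratio -1.16). The subunits of the main fibronectin receptor α5β1 were ITGA5, at 15.2 against 12.5 RPKM, and ITGB1, at 157.0 against 140.9. ITGB5 had 22.8 against 18.7 RPKM, and ITGA4, whose integrin binds the first V segment, 12.9 against 14.99.

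Of 22 matrix partners and processing enzymes, 11 passed 1 RPKM, 1 was 2-fold higher and none lower (0.617% and 0.265% of all genes compared), with a median log2 ratio of 0.21. The higher gene was TGM2, tissue transglutaminase, which crosslinks fibronectin, at 225.7 against 63.9 RPKM (log2 ratio 1.80). THBS1, a matricellular protein, had 683.7 against 409.6 RPKM, and CCN2, a matricellular protein that binds fibronectin, 10.9 against 6.92. LTBP1, which anchors latent TGF-beta to fibronectin, had 1.27 against 2.22. Of the tenascin family, TNXB had 1.52 against 0.926 RPKM (log2 ratio 0.39), and TNR and TNN were not matched to a line of the table.

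None of the 26 splicing regulators differed 2-fold in either direction, and their median log2 ratio was -0.06. Among those studied on the EDA exon, SRSF1 had a log2 ratio of -0.19, SRSF3 0.02, SRSF5 -0.17 and TRA2B -0.09. ESRP1, an epithelial splicing regulator, had 42.01 against 47.9 RPKM. The largest ratios in the list were those of PTBP3 (16.9 against 13.2 RPKM), HNRNPH1 (267.0 against 323.6), HNRNPA1 (973.1 against 1176) and QKI (54.8 against 45.8). These are RNA levels of the genes and say nothing of protein or its activity.

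Of 22 signals and transcription regulators known to act on FN1 or TNC, 20 passed 1 RPKM, 2 were 2-fold higher and none lower (again beside 0.617% and 0.265% of all genes), with a median log2 ratio of 0.12. TGFB2, a TGF-beta ligand, had 23.4 RPKM in the ASC library against 9.64 in the control library. ETS1, a transcription factor of invasive cells, had 55.7 against 27.2 RPKM. SNAI1 had 1.65 against 1.01 RPKM and JUN 75.5 against 59.6.

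The protein-coding genes most like FN1, by a mean RPKM within 2-fold and the nearest log2 ratio over the 2 libraries, were AREG (274.2 against 123.6 RPKM), S100A9 (230.5 against 106.6) and PLK2 (101.7 against 51.6). Of the 949 genes in that range of levels, 4 were 2-fold higher. For TNC they were TRPV6 (7.90 against 2.99 RPKM), INHBB (6.93 against 2.55) and TMEM200A (9.48 against 3.71), of 2922 genes in range, 23 of them 2-fold higher. Likeness over 2 libraries is 1 ratio and a level, and no more is read from it.

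**Figure D5:**
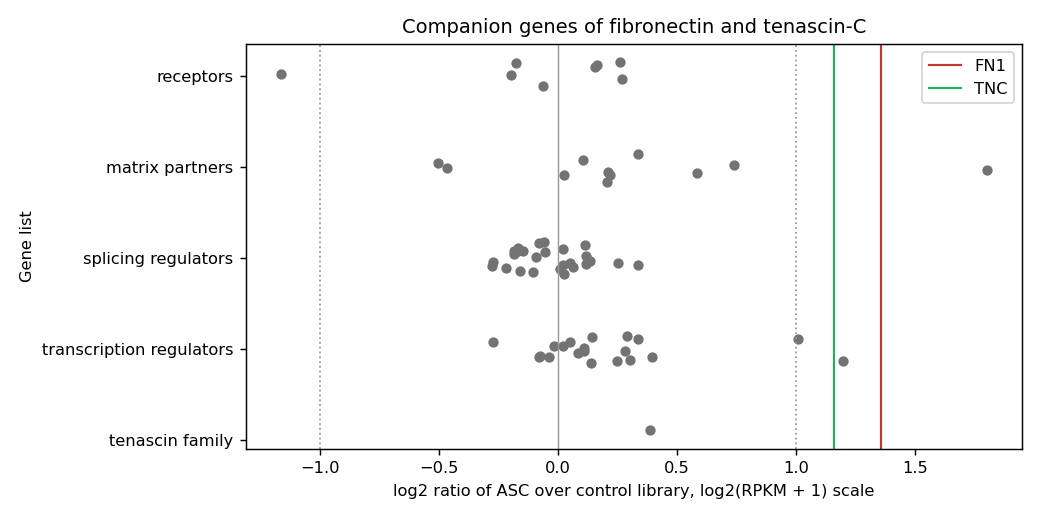
Log2 ratio of the ASC over the control library, on the log2(RPKM + 1) scale, for each compared gene of the receptor, matrix partner, splicing regulator, transcription regulator and tenascin lists (grey points, spread vertically for clarity), with FN1 (red line) and TNC (green line). Dotted lines mark 2-fold; TGM2, TGFB2 and ETS1 lie past it on the higher side, ITGB8 on the lower side, and all 26 splicing regulators lie within it.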

How the data were processed

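RNA was measured in 2 libraries, 1 per group. Poly(A) RNA was extracted with TRIzol and made into libraries with a TruSeq kit, which keeps no strand, per the labels' protocols. The deposited table holds, per the file headers, estimated counts of reads per transcript and RPKM values for each library, both made by the authors. The submitters' processing notes name hg38. The aligner, quantifier and annotation: not given in the sources used here. Dividing deposited reads by RPKM and length gives 1 constant in each library, and the listed reads are 88.1% (ASC) and 87.4% (control) of it.

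Exons, transcript types and sequences were taken from GENCODE 29, in which 98.4% of the 134092 transcripts have the same version. Their starts match, and 1 base was taken from each deposited stop to match the annotated ends. RPKM was summed per gene, and 12471 genes reaching 1 RPKM in 1 library or both were compared as log2(RPKM + 1). Of 285 gene names turned into dates by a spreadsheet, 284 were restored. A transcript holds an exon when it has it whole and skips it when it has exons on both sides without it. Each transcript's share is its part of the gene's reads.

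Transcripts with at least 100 reads in either library are named, with the 4 genes of each list that have the largest absolute log2 ratio, and ITGA5, ITGB1, SRSF1, SRSF3, SRSF5, TRA2B, ESRP1, TNR, TNN and TNXB. FN1, TNC and the gene lists were chosen with earlier results of these data known. With 1 library per group no test between conditions was possible. Intervals are exact 95% binomial intervals from reads rounded to whole numbers. Alternatives were pseudocounts of 0.1 and 3, no filter or a filter at 5 RPKM, median centring, TMM factors from the rounded counts (edgeR 4.0.16 in R 4.3.3), CPM, the highest transcript, protein-coding or complete transcripts only, weighting by reads, and leaving out the most abundant transcript. The alternatives for the mean number of TNC repeats and for the V forms, leaving out TNC-211 and the set of genes near FN1 in depth were added after the data had been seen. The calculations were tested on simulated data. Analyses used Python 3.11.15, pandas 2.3.3, numpy 2.4.6, scipy 1.17.1, biopython 1.88 and matplotlib 3.10.9.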

Additional observations from a re-analysis of the deposited data

How the results depend on the processing

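No alternative turned the direction of the FN1 or TNC level, of EDA or EDB inclusion, of the mean number of TNC repeats or of the V shares. None of them counted FN1-213 as holding EDB. The FN1 log2 ratio was 1.31 for the highest transcript alone. The TNC log2 ratio was 1.57 by CPM, 1.46 with a pseudocount of 0.1 and 0.80 with a pseudocount of 3, at which TNC was no longer called 2-fold higher. Without the most abundant FN1 transcript, FN1-212, the EDA difference was -4.46 points and the EDB difference -1.25. The TNC mean repeat difference was 0.36 without TNC-211, an alternative chosen after seeing the data. Of 12 FN1 and 2 TNC transcripts with at least 100 reads, 6 and 1 were called; with a pseudocount of 3 these were 4 and 0, and by CPM or a pseudocount of 0.1 they were 10 and 2. Genes 2-fold higher, 77 in the values reported, numbered 121 by CPM, 160 with a pseudocount of 0.1 and 34 with a pseudocount of 3. Genes 2-fold lower, 33 in the values reported, numbered 65 by CPM, 17 with a filter at 5 RPKM, 127 with a pseudocount of 0.1 and 9 with a pseudocount of 3. The median of the tenascin family, 0.77 over TNC and TNXB, was 1.16 with a filter at 5 RPKM, 1.06 with a pseudocount of 0.1 and 0.50 with a pseudocount of 3. Genes with a usage shift of at least 10 points made up 11.3% of those with 1000 reads, 24.0% at 100 reads, 1.74% at 5000 reads and 21.3% by share of RPKM. The receptor median, 0.05 in the values reported, was -0.04 with no filter on low values, and the R6 difference of TNC, 0.85 points, was -0.43 by reads, -0.42 among protein-coding and -0.51 among complete transcripts. By share of RPKM the shift of FN1 was 4.27 points and that of TNC 24.8. No paired analysis was possible because each group has 1 library, and for the same reason no replicate could be left out. The causes of these moves were not tested, other than fewer genes entering at a stricter filter. With 429 control reads, TNC limits what can be said of any form below 100 reads. Most FN1 forms have no sequence of their own, so their shares depend on a quantifier that the sources used here do not give, and its error could not be measured.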
